A study of Mus musculus with 6 samples.

Results

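Broad binding sites of PU.1 were examined in iBN cells, mouse cells labelled as granulocyte-macrophage progenitors and grown in GM-CSF, a cytokine that supports myeloid growth. The cell type was not checked against marker genes, since peak lists hold no expression values. A system for inducing PU.1 with doxycycline was present in all samples, uninduced ones included. For induction the drug was given at 1000 ng per ml over 72 hours, and the uninduced cells went without it. Each condition had 2 PU.1 ChIP libraries with a peak list of their own, besides 1 list merged by the authors. A broad peak was defined here as a peak of induced replicate 1 with a width of at least 3000 bp that overlapped a peak of at least 3000 bp in induced replicate 2. This rule found 500 of the 68076 peaks of induced replicate 1. One of them, at chromosome 17, 39979577 to 39986153, is a ribosomal repeat and was set apart, so 499 broad peaks are described. Widths in the induced lists chose these peaks and are given without a test. All positions are in mouse build mm9, counted from 1, and broad peaks are named by position because no annotation or sequence of that build was used here.

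PU.1 belongs to the ETS transcription factors and binds DNA at purine-rich sites with a GGAA core. It is required for the formation of macrophages, granulocytes and B cells, and its level influences which myeloid lineage a progenitor enters. A transcription factor bound at 1 short site usually gives a narrow peak that is set by the length of the DNA fragments. A peak caller reports a wide peak where enriched windows run into each other, as they can where several sites lie close together or where a whole stretch of chromatin is enriched. Ribosomal RNA genes exist in many tandem copies, of which a genome assembly holds only a few, so reads of all copies can pile up there.

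The induced lists held 68076 and 57336 peaks in replicates 1 and 2, and the uninduced lists held 31960 and 42951. Scores, the authors' own value for each peak, ran upward from 50 in every list, and no list ran above 3233.06. Many of the highest-scoring peaks carried exactly 3100. The read depth of the libraries is unknown, and a place with no peak may still hold binding below the calling threshold. Longer lists and wider peaks can both accompany deeper libraries, and how far depth contributed to the widths below was not tested. The labels do not say whether the replicates came from separate cultures, so their spread may be technical.

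Peaks of 3 kb or more were rare in every library and commoner after induction. Induced replicates 1 and 2 held 1257 and 574 of them, and uninduced replicates 1 and 2 held 53 and 121. Both induced libraries exceeded both uninduced ones, although the induced replicates differed from each other by more than 2 times. The induced libraries averaged 916 ± 483 such peaks and the uninduced libraries 87.0 ± 48.1 (mean ± SD, n = 2 each), a ratio of 10.5 with a two-sided exact permutation p of 0.33. As a share of each list, peaks of 3 kb or more made up 1.85% and 1.00% of the induced peaks, and 0.166% and 0.282% of the uninduced peaks. The means were 1.42% ± 0.598 in induced and 0.224% ± 0.0819 in uninduced libraries (SD, n = 2 each), a ratio of 6.36 with an exact permutation p of 0.33. That p is the smallest that 2 libraries against 2 can give, so no comparison between the conditions could pass a threshold of 0.05.

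Most wide peaks of induced replicate 2 were wide in induced replicate 1 as well, and fewer were so in the other direction. Of the 574 wide peaks of induced replicate 2, 502 (87.5%) lay at a peak of at least 3000 bp in induced replicate 1. Of the 1257 wide peaks of induced replicate 1, 500 (39.8%) met the rule. A further 752 overlapped a narrower peak of induced replicate 2, whose median width was 2252 bp, and 5 overlapped none. Just inside the threshold, the peak at chromosome 8, 13675773 to 13678997, measured 3225 bp in induced replicate 1 and 3001 bp in induced replicate 2. It was 2996 and 2811 bp wide in the uninduced libraries. The next 2 just inside, at chromosome 8, 73362333 to 73365672, and chromosome 10, 79345268 to 79348270, measured 3340 and 3003 bp in induced replicate 1 and 3001 and 3076 bp in induced replicate 2. These 3 passed the rule by 1 to 3 bp in 1 of the induced libraries. Just outside it, the peak at chromosome 12, 79959602 to 79963754, measured 4153 and 2998 bp in induced cells and 1490 and 1833 bp in uninduced cells. At chromosome 7, 141860096 to 141863110, the widths were 3015 and 2998 bp in induced and 1369 and 2932 bp in uninduced cells. The nearest miss, at chromosome 14, 95406734 to 95410176, fell short by 1 bp in induced replicate 2 and had no uninduced peak. Widths on both sides of the threshold thus ran on without a gap.

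The 499 broad peaks were mostly between 3 and 5 kb wide. By the lower of their 2 induced widths, 363 (72.7%) measured 3000 to 3999 bp, 100 (20.0%) measured 4000 to 4999 bp, 21 measured 5000 to 5999 bp and 15 measured 6000 bp or more. The median width was 3828 bp in induced replicate 1 and 3527 bp in induced replicate 2. Induced replicate 1 had the wider peak at 390 of them and induced replicate 2 at 109. The edges lay close together, with a median gap of 93.0 bp at the start and 109 bp at the end. Both edges were within 200 bp of each other at 260 broad peaks (52.1%). In induced replicate 2, 428 broad peaks (85.8%) were matched by 1 peak, 62 by 2 and 9 by 3 or more. A single pair of neighbouring broad peaks shared 1 peak of induced replicate 2, and these were counted as 2.

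Broad peaks stood near the top of the induced lists by score, which is a description because width and score come from the same reads. Their median score percentile was 97.7 in induced replicate 1 and 96.3 in induced replicate 2. In 380 of the 499 (76.2%) the score was above the percentile of 90 in both lists. Score and width went together in each whole list, with a Spearman rho of 0.75 over the 68076 peaks of induced replicate 1 and 0.69 over the 57336 peaks of induced replicate 2. Among the broad peaks alone the relation was looser, at 0.39 and 0.31 (n = 499). These correlations describe peaks of 1 library and carry no p, because peaks of a library are not independent samples.

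**Figure D1:**
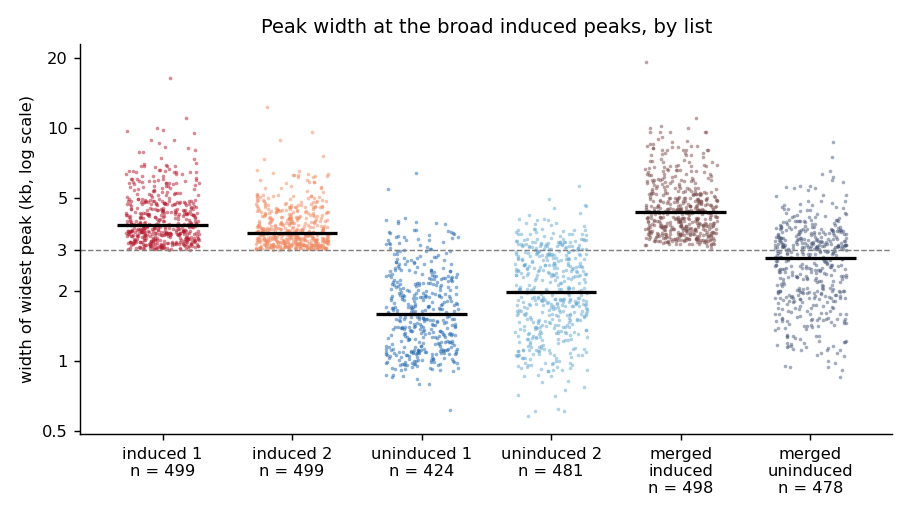
Width of the widest peak at each of the 499 broad peaks in the 2 induced, the 2 uninduced and the 2 merged lists, on a log axis in kb. Each point is 1 broad peak with a peak in that list (n under each label), black bars are medians and the dashed line is at 3 kb. All points of both induced lists lie above the line because the rule chose them so, whereas the medians were 1586.5 and 1968 bp in uninduced replicates 1 and 2.

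At most of these places a peak was already called before induction. Of the 499 broad peaks, 422 (84.6%, 95% Wilson interval 81.1 to 87.5%) had a peak in both uninduced libraries. A further 59 (11.8%) had one in uninduced replicate 2 alone, 2 had one in uninduced replicate 1 alone, and 16 (3.21%, 1.98 to 5.14%) had one in neither. Over all 51914 peaks of induced replicate 1 that overlapped a peak of induced replicate 2, 37.6% had a peak in both uninduced libraries and 36.0% had one in neither. Broad peaks were therefore found before induction more often than induced peaks in general. The uninduced lists played no part in choosing the broad peaks. The intervals cover counting error over peaks of the same libraries and do not measure the spread between cultures.

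Part of that share goes with width itself, since a wider interval offers more length for an overlap. The next narrower class held 2364 peak pairs with a lower induced width of 2 kb to under 3 kb. Of these, 1711 (72.4%) had a peak in both uninduced libraries and 143 (6.05%) in neither. When an uninduced peak had to touch the central 1000 bp of the induced peak, the share with both fell to 72.3% of the broad peaks (361 of 499), against 69.8% of the next narrower class. With neither, the shares were 7.41% of the broad peaks and 7.40% of the narrower class. Measured at the centre, broad peaks and peaks of 2 to 3 kb thus gave nearly equal shares. Peaks with a lower induced width under 1000 bp had an uninduced peak at the centre in both libraries in 25.8% of cases, and those of 1000 to 1999 bp in 50.0%. These classes also differed in score, with medians of 146.2 in induced replicate 1 for the narrowest class, 1106 for 2 to 3 kb and 1708 for 3 to 4 kb.

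**Figure D2:**
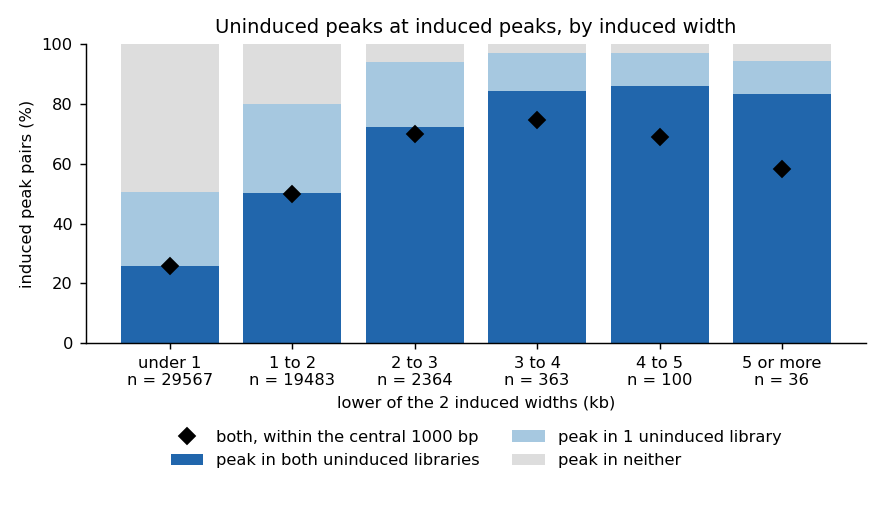
Share of induced peak pairs (in %) with a peak in both, in 1 or in neither uninduced library, by the lower of the 2 induced widths in kb (n under each bar). Diamonds give the share with both when the uninduced peak had to touch the central 1000 bp. The share with both at any place was 25.7% under 1 kb and 84.3% at 3 to 4 kb, and the share at the centre was 74.7% at 3 to 4 kb and 58.3% at 5 kb or more.

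The uninduced peaks at these places were much narrower than the induced ones. Where a peak was present, the widest overlapping peak had a median width of 1586.5 bp in uninduced replicate 1 (n = 424) and 1968 bp in uninduced replicate 2 (n = 481), against list medians of 943 and 895 bp. The list medians are over single peaks, whereas a long place can overlap several peaks of which the widest was taken. Part of that difference is thus fixed by the measure. The ratio of uninduced to induced width over the 422 broad peaks found in all 4 libraries had a median of 0.385 for replicate 1 over replicate 1 and 0.558 for replicate 2 over replicate 2. The crossed pairs gave 0.416 for uninduced replicate 1 over induced replicate 2 and 0.503 for uninduced replicate 2 over induced replicate 1. In 400 of the 422 (94.8%) both induced widths exceeded both uninduced widths, in none of the 422 (Wilson upper bound 0.902%) did both uninduced widths exceed both induced widths, and in 22 the widths interleaved. Among all 19530 induced peaks found in all 4 libraries, both induced widths exceeded both uninduced widths in 48.9%, and both uninduced widths were the greater in 5.88%. The rule required large induced widths, which fixes most of this direction for the broad peaks, so their count is a description and not evidence of widening.

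**Figure D3:**
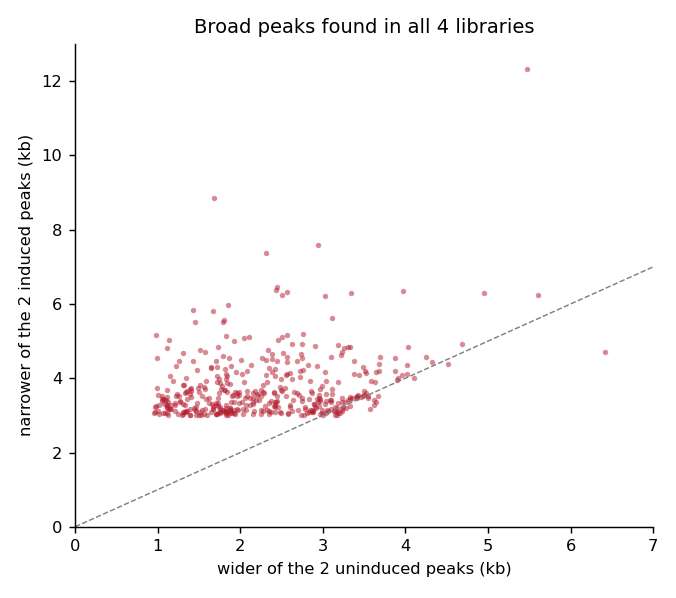
Narrower of the 2 induced widths against the wider of the 2 uninduced widths, in kb, for the 422 broad peaks found in all 4 libraries. Each point is 1 broad peak and the dashed line marks equal width. The 400 points above the line are broad peaks whose induced widths both exceeded both uninduced widths.

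A choice made from the uninduced lists gives a comparison in which the choice itself does not favour the induced widths. The widest overlapping induced peak was still taken, and the induced lists were longer, so other differences between the lists remain in it. Leaving out the ribosomal repeat, 31 peaks were 3 kb or more in both uninduced libraries. Of these, 27 (87.1%) were also 3 kb or more in both induced libraries, 2 in 1 of them and 2 in neither. Although these 31 had been chosen for large uninduced widths, both induced widths exceeded both uninduced widths in 20 of them, the reverse held in 1, and 9 interleaved. The remaining one, at chromosome 1, 85096909 to 85103164, had no peak in either induced library and measured 6256 and 5450 bp in the uninduced ones. Its neighbour at chromosome 1, 85160402 to 85165954, was the 1 place wider before induction, with 1807 and 2741 bp in induced and 5553 and 5835 bp in uninduced cells. The median widths over the 30 with induced peaks were 4021.5 and 3529.5 bp in induced replicates 1 and 2, and over all 31 they were 3518 and 3341 bp in uninduced replicates 1 and 2.

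A broad induced peak most often held a single uninduced peak, and several shorter ones were also frequent. In uninduced replicate 1, 254 broad peaks (50.9%) held 1 peak, 144 (28.9%) held 2 and 26 (5.21%) held 3 or more. In uninduced replicate 2 these numbers were 237 (47.5%), 191 (38.3%) and 53 (10.6%). The broad peaks with more uninduced pieces were the longer ones. Those with 1 piece in uninduced replicate 2 had a median induced replicate 1 width of 3607 bp, those with 2 of 3959 bp and those with 3 or more of 4878 bp. Together the pieces covered a median of 48.1% of a broad peak's length in uninduced replicate 1 and 69.2% in uninduced replicate 2. For peaks of 2 to 3 kb these medians were 45.9% and 69.8%, so the covered share was much the same in the narrower class. Summed over all pieces, uninduced width was 0.535 of the induced width for replicate 1 over replicate 1, and 0.754 for replicate 2 over replicate 2.

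Within a broad peak the uninduced peaks were often off the centre. The centre of the broad peak fell inside the widest uninduced peak in 250 of 424 cases (59.0%) in replicate 1 and in 349 of 481 (72.6%) in replicate 2. The centre of the widest uninduced peak lay a median of 703.8 and 514 bp from the centre of the broad peak. In 165 (38.9%) and 179 (37.2%) exactly 1 edge of the uninduced peak lay within 200 bp of an edge of the broad peak, and in 11 (2.59%) and 35 (7.28%) both edges did. In the class of 2 to 3 kb the centre lay inside the widest uninduced peak in 72.4% and 82.7% of those with one, exactly 1 edge was shared in 54.6% and 54.1%, and both edges in 8.91% and 13.8%. All of these shares were thus higher in the narrower class, where 200 bp is a larger part of the width. For induced replicate 2, which the rule used, the centre offset was 92.5 bp.

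**Figure D4:**
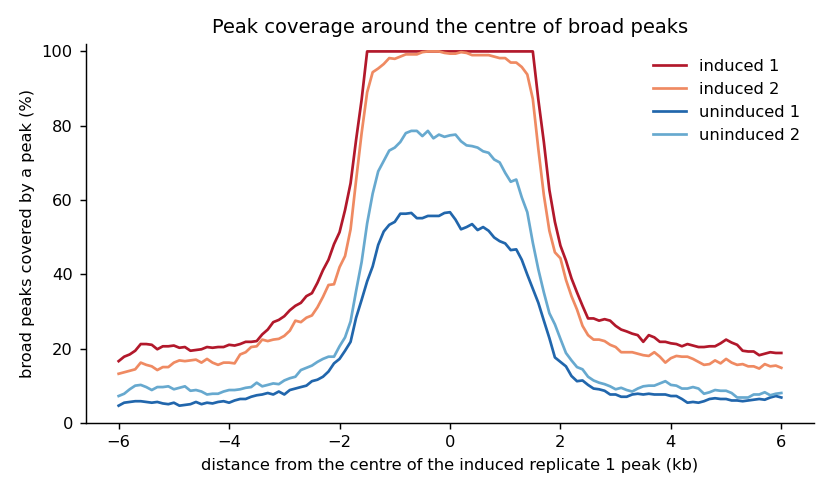
Percentage of the 499 broad peaks covered by a peak of each library, at 100 bp steps up to 6 kb on either side of the centre of the induced replicate 1 peak. At the centre, 99.4% were covered in induced replicate 2, against 56.7% in uninduced replicate 1 and 77.4% in uninduced replicate 2. At 2 kb to the right these values were 44.3%, 16.4% and 22.6%. Coverage near the centre is high in both induced libraries because the rule chose the peaks so, and the contrast there is a description.

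Only a minority of the broad peaks were already broad before induction. An uninduced peak of 3 kb or more was present in both uninduced libraries at 27 of the 499 (5.41%, 3.74 to 7.76%), in 1 of them at 70 (14.0%) and in neither at 402 (80.6%). Over all 51914 induced peak pairs, 0.0578% had an uninduced peak of 3 kb or more in both libraries, and in the class of 2 to 3 kb it was 2 of 2364 (0.0846%). The replicates disagreed on the number, since 37 broad peaks reached 3 kb in uninduced replicate 1 and 87 in uninduced replicate 2. The 27 had high scores in the induced lists, with medians of 3100 and 2027.8, and in the uninduced lists, with medians of 629.5 and 878.8.

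The widest broad peak of all was among these 27. It lay at chromosome 19, 5835070 to 5851434, and measured 16365 and 12317 bp in the induced libraries, against 5476 and 4622 bp for the widest of 3 peaks in each uninduced library. All other broad peaks measured under 10 kb in induced replicate 2. The next by uninduced width lay at chromosome 8, 73061577 to 73065835, with 4259 and 4004 bp in induced and 4103 and 4073 bp in uninduced cells, so that its widths hardly differed between the conditions. At chromosome 15, 77668796 to 77673496, the widths were 4701 and 4426 bp in induced and 3922 and 4326 bp in uninduced cells, and the scores were 3100 in both induced libraries. The broad peak at chromosome 3, 96289548 to 96293678, measured 4131 and 4085 bp in induced and 3963 and 3919 bp in uninduced cells. At both of these the uninduced peaks were nearly as wide as the induced ones. The last of the 5 chosen by uninduced width, at chromosome 15, 74758891 to 74763041, measured 4151 and 3993 bp in induced and 3904 and 3842 bp in uninduced cells. Apart from the peak on chromosome 19, these 4 places had similar widths in all 4 libraries.

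The next 2 by width, by contrast, held only uninduced peaks far narrower than the induced ones, or none. At chromosome 15, 19637732 to 19647504, the peak measured 9773 and 9566 bp in the induced libraries with scores of 2183.9 and 1888.76. There, uninduced replicate 1 had no peak and uninduced replicate 2 had 1 of 861 bp with a score of 79.48. At chromosome 3, 43740843 to 43749735, the induced widths were 8893 and 8846 bp, both at a score of 3100, and the widest of 3 and 2 uninduced peaks were 1684 and 711 bp with scores of 174.71 and 71.81. At both places the uninduced peaks were thus absent or far narrower than the induced ones. The peak of 1684 bp was still wider than the median of 1586.5 bp over the broad peaks in uninduced replicate 1.

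Of the other 7 among the 10 widest, all but 1 held a peak in both uninduced libraries. The exception, at chromosome 8, 19853776 to 19860227, is described with the broad peaks that had no uninduced peak. At chromosome 5, 143576702 to 143585598, the widths were 8897 and 7599 bp in induced and 2325 and 2946 bp in uninduced cells. The peak at chromosome 19, 4297245 to 4306721, measured 9477 and 7362 bp in induced cells and covered 3 peaks in each uninduced library, the widest 2306 and 1567 bp. A neighbour of the widest broad peak, at chromosome 19, 5798514 to 5808549, measured 10036 and 6377 bp in induced and 2170 and 2431 bp in uninduced cells. At chromosome 8, 87183356 to 87189793, the widths were 6438 and 6340 bp in induced and 3975 and 2349 bp in uninduced cells. A pair of neighbours on chromosome 3 completed the list. The first, at 89194075 to 89201142, measured 7068 and 6331 bp in induced and 2458 and 2571 bp in uninduced cells. The second, at 89221333 to 89227793, measured 6461 and 6599 bp in induced and 2442 and 1317 bp in uninduced cells.

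Among the broad peaks, width before induction was only weakly related to width after it. Over the 422 broad peaks found in all 4 libraries, the Spearman rho between uninduced and induced width was 0.24 for replicate 1 and 0.14 for replicate 2. Between the replicates of a condition it was 0.68 for induced width over 499 broad peaks and 0.49 for uninduced width over 422. Scores followed the replicates more closely, at 0.91 in induced and 0.68 in uninduced libraries. The range of induced widths was cut off at 3 kb by the rule. Over all peaks found in all 4 libraries the uninduced widths tended to be larger where the induced ones were. Median uninduced replicate 1 widths were 944 bp under 1 kb, 1355 bp at 2 to 3 kb and 1974.5 bp at 5 kb or more. In uninduced replicate 2 these medians were 872.5, 1740 and 2095.5 bp, the last below the 2535 bp at 4 to 5 kb. A longer place offers more overlapping peaks to take the widest from, and how far this contributed was not tested. All these values are descriptions without a p.

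The 16 broad peaks with no uninduced peak were not the strongest ones. Their induced widths ran from 3036 to 6452 bp in replicate 1 and from 3123 to 6528 bp in replicate 2, with medians of 3686 and 3359 bp. Their median scores were 696.7 and 308.0 in induced replicates 1 and 2, against 1969.4 and 1156.8 over all 499. The authors' merged uninduced list had a peak at 2 of the 16. The widest of them lay at chromosome 8, 19853776 to 19860227, with widths of 6452 and 6528 bp but scores of only 174.04 and 116.94. It was the only broad peak with no peak in the authors' merged induced list. The next, at chromosome 11, 116611230 to 116617251, measured 6022 and 5502 bp with scores of 61.03 and 184.08. Both of these thus scored low for their width. At chromosome 3, 96022385 to 96027593, the widths were 5209 and 4998 bp and the scores 944.25 and 592.29. At chromosome 10, 116710807 to 116717176, they were 6370 and 4594 bp and 529.25 and 390.46. The fifth, at chromosome 15, 61814596 to 61819837, measured 5242 and 4170 bp with scores of 906.21 and 581.3, and the merged uninduced list held a peak of 1774 bp there.

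Wide peaks with low scores were few. In 4 broad peaks the score was below the median of at least 1 induced list, and these were picked out after the scores were seen. They include the peaks just named on chromosomes 8 and 11. Another, at chromosome 1, 87385243 to 87389229, scored 79.33 and 108.47 in the induced lists. The last, at chromosome 8, 3514790 to 3518092, scored 534.17 and 100.06. The peak on chromosome 1 was 3987 and 3335 bp wide in induced cells and 3778 bp wide in uninduced replicate 2, with none in uninduced replicate 1. The other 3 had no uninduced peak.

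The ribosomal repeat was about equally wide in all 4 libraries, as were some of the broad peaks named above. It spanned chromosome 17, 39979577 to 39986153, in induced replicate 1. Its widths were 6577 and 6122 bp in induced and 6710 and 6510 bp in uninduced cells. Its score was 2937.76 and 3100 in the induced lists, and 523.41 and 3100 in the uninduced lists. It was the widest peak of both uninduced libraries, at 6710 and 6510 bp, so the widest uninduced places would be headed by it if it were counted.

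In the authors' merged lists the same places were wider than in the replicates. A merged induced peak was present at 498 of the 499 broad peaks and had a median width of 4353 bp. It exceeded both replicates at 443 of them, and at 22 it was at least 1.5 times as wide as the wider replicate. In 2 cases a merged induced peak joined 2 neighbouring broad peaks. A merged uninduced peak was present at 478 and had a median width of 2775 bp. It reached 3 kb at 206 (41.3%), of which 113 reached 3 kb in neither uninduced replicate. The merged induced peak was the wider one at 468 of the 478 places with both, and the median ratio of merged uninduced to merged induced width was 0.601. The share of broad peaks that count as broad before induction therefore depended on the list, with 5.41% by both replicates and 41.3% by the merged list. Among the merged induced peaks, 2170 were 3 kb or more, of which 497 were that wide in both induced replicates and 869 in neither.

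Broad peaks were spread unevenly over the chromosomes. Chromosome 3 held 61 of them (12.2%), chromosome 8 held 57 (11.4%) and chromosome 19 held 43 (8.62%), against 4.95%, 5.69% and 3.78% of the 51414 narrower peak pairs. Chromosome 17 held 35 (7.01%, against 4.30%). In the class of 2 to 3 kb, chromosomes 3, 8, 19 and 17 held 6.09%, 7.40%, 6.51% and 4.40%, in each case between the shares just given. Chromosomes 1, 6 and 9 held 3.61%, 3.01% and 2.61%, against 6.71%, 5.53% and 5.13% of the narrower pairs, and chromosome X held 4 broad peaks. No test was made of these shares, because neighbouring peaks are not independent.

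Part of this pattern was present in each whole list. The wide peaks of the induced lists include the broad peaks themselves, so only the uninduced shares are separate from the rule. On chromosome 8, peaks of at least 2000 bp made up 7.25% and 8.05% of all such peaks in the induced lists, against 5.53% and 5.61% of narrower peaks. In the uninduced lists they made up 11.8% and 9.30%, against 5.32% and 5.50%. On chromosome 19 the shares were 6.20% and 6.88% in the induced lists, against 3.56% and 3.61% of narrower peaks, and 6.53% and 4.65% in the uninduced lists, against 2.96% and 2.84%. Chromosomes 8 and 19 thus held more than their share of wide peaks in all 4 libraries. The same was true of chromosomes 10, 11 and 17. On chromosome 10 the shares were 6.83% and 6.76% in the induced lists, against 5.77% and 5.79% of narrower peaks. In the uninduced lists they were 10.2% and 8.19%, against 5.61% and 5.54%. Chromosome 10 nevertheless held 6.01% of the broad peaks, close to its 5.81% of the narrower pairs. On chromosome 3 wide peaks exceeded their share in the induced lists, which the rule used, with 6.77% and 7.29% against 4.98% and 4.93%. The uninduced replicates went opposite ways there, with 6.88% against 5.33% in replicate 1 and 4.09% against 4.65% in replicate 2.

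**Figure D5:**
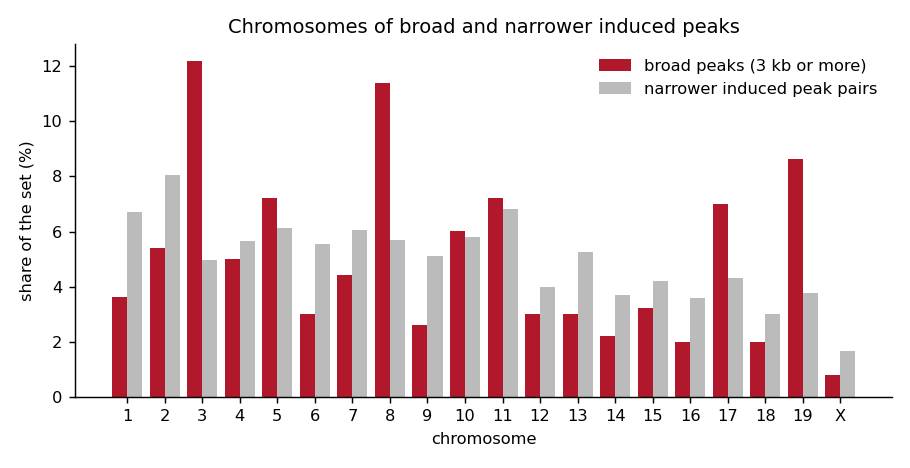
Share of the 499 broad peaks and of the 51414 narrower induced peak pairs on each chromosome, in %. Bars start at 0. Chromosomes 3, 8 and 19 held 12.2%, 11.4% and 8.62% of the broad peaks, more than any other chromosome.

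The excess on chromosome 3 fell between 85 and 120 Mb. That segment held 48 of the 61 broad peaks of the chromosome, or 9.62% of all broad peaks, and 2.05% of the narrower pairs. Broad peaks made up 4.35% of the induced peak pairs in the segment and 0.888% elsewhere. Within the segment 5 of 48 broad peaks had no uninduced peak (10.4%), against 11 of 451 elsewhere (2.44%), and the share with both was 83.3% against 84.7%. These shares were not computed for the narrower pairs of the segment, so whether they are particular to its broad peaks was not tested. Its median widths in induced replicates 1 and 2 were 4653.5 and 3847.5 bp, against 3790 and 3509 bp elsewhere. In uninduced replicates 1 and 2 they were 1707 and 1722 bp, against 1544 and 2022 bp elsewhere, over the places with a peak in that library. The segment was picked with earlier results of these data known, so its values are a description.

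Some broad peaks lay near one another. Within 100 kb of another broad peak lay 139 of the 499 (27.9%), in 43 groups of 2 and 14 groups of 3 or more, while 360 stood alone. The same share was not computed for narrower peaks, so whether it differs for broad ones was not tested. Another induced replicate 1 peak of any width lay within 5 kb of 80.6% of the broad peaks, against 72.2% of the peaks of 2 to 3 kb and 58.8% of all narrower pairs. The largest groups had 6 broad peaks each. One spanned 173 kb at chromosome 3, 88256182 to 88429362, with widths of 3458 to 6828 bp in induced replicate 1 and 3323 to 5527 bp in induced replicate 2. None of its 6 members reached 3 kb in an uninduced replicate, although 1 measured 3773 bp in the merged uninduced list. They measured 1392 to 2611 bp in uninduced replicate 1 and at most 2721 bp in uninduced replicate 2, which had no peak at 1 of them.

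The other group of 6 gave a different picture. It spanned 304 kb at chromosome 8, 73061577 to 73365672, with widths of 3168 to 6336 bp and 3001 to 4004 bp in the induced libraries. In the uninduced libraries they were 1265 to 4103 bp and 1166 to 4073 bp, and 4 of the 6 reached 3 kb in at least 1 uninduced library, 3 of them in both. At chromosome 10, 127812881 to 127986997, 5 broad peaks in 174 kb measured 3662 to 5204 bp and 3061 to 4412 bp in induced cells, and 1387 to 2847 bp and 1692 to 3683 bp in uninduced cells. The group of 4 at chromosome 19, 5722437 to 5851434, held the widest broad peak of all, and its members measured 4958 to 16365 bp and 3037 to 12317 bp in induced cells, against 1645 to 5476 bp and 1699 to 4622 bp in uninduced cells.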

How the data were processed

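Per the submitters' processing notes, reads were handled with Trim Galore, Bowtie and MACS 1.4.1 on mouse build mm9. Each list deposited by the authors has 5 columns. The last is a score that the authors' peak calling gave each peak, as deposited, used only within a list because no source says what its scale is. The other deposited columns give the peak's chromosome, start, end and name, and width is end minus start. Not given in the sources used here: calling settings, the control, and how lists were merged. The 2 input libraries were not analysed here. Overlap meant at least 1 bp, and the widest overlapping peak stood for a list. Titles gave the groups, whose libraries were compared by exact permutation (two-sided). Intervals are 95% Wilson intervals. The text names the 10 broad peaks with the greatest lower induced width, the 5 widest of those with no uninduced peak, the 5 of those of 3 kb or more in both uninduced libraries with the greatest lower uninduced width, and the 3 pairs on either side of the threshold. The broad peaks, classes and regions were chosen with earlier results of these data known. The software was matplotlib 3.10.9, pandas 2.3.3, SciPy 1.17.1 and NumPy 2.4.6 under Python 3.11.15, and the functions were tested on simulated lists.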

Additional observations from a re-analysis of the deposited data

How the results depend on the processing

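The number of broad peaks, 499, was 1201 with a width minimum of 2500 bp, 136 with 4000 bp and 2169 by the authors' merged lists. Leaving out 1 library in turn gave 499 to 1256, the highest without induced replicate 2, when only replicate 1 chose the peaks. The share with a peak in both uninduced libraries, 84.6%, was 80.8% with 2500 bp, 68.0% with scores of at least 100, 89.7% with the merged lists and 72.3% when the uninduced peak had to touch the central 1000 bp, an alternative chosen after seeing the data. It ran from 78.5% without induced replicate 2 to 96.4% without uninduced replicate 1. The share with neither, 3.21%, was 8.65% with scores of at least 100, 10.3% with the merged lists and 7.41% at the centre, and ran from 3.61% to 15.0% without 1 library, the highest without uninduced replicate 2. An uninduced peak past the width minimum in both libraries, 5.41%, became 1.47% (2 of 136) with 4000 bp and 14.4% with the merged lists, and ran from 2.31% without induced replicate 2 to 17.4% without uninduced replicate 1. Both induced widths exceeded both uninduced widths in 91.1% with 2500 bp, 97.4% with 4000 bp and 99.1% with the merged lists, and in 95.1% to 99.0% without 1 library, against 94.8%. The median ratio of mean uninduced to mean induced width, 0.477, was 0.635 with the summed length of all overlapping peaks, and ran from 0.396 without uninduced replicate 2 to 0.50 without uninduced replicate 1. In the merged, leave-one-out and stricter settings fewer lists or other peaks enter by construction, and other causes were not tested. Of 78 values computed for the broad peaks, 53 stayed within 1.5 times (counts), within the Wilson interval (shares) or within 1 SD of the library pairs (ratio). Some of the 53 could hardly change. The number of broad peaks cannot depend on an uninduced library, and counting the ribosomal repeat adds 1 place. The 53 are therefore no measure of stability. For the library comparisons the p could not pass the threshold, so it says nothing of stability. With lists of equal length the share with both was 84.2%. The ratio of peaks of 3 kb or more per library, 10.5, ran from 6.60 to 17.3 without 1 library, and was 7.51 with 2500 bp and 19.6 with 4000 bp. The ratio of shares, 6.36, ran from 4.47 to 8.59 without 1 library, and became 12.0 with 4000 bp and 10.5 when all lists had equal length. With a replicate block the exact permutation p of both ratios was 0.5, the smallest that 2 pairs allow. Deviations of same-numbered replicates in log2 width were uncorrelated (r = -0.036 over 19107 places), so the numbers were not treated as pairs. Those places were the narrower pairs found in all 4 libraries, without the broad peaks. The unknown read depth limits every comparison of widths between lists.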
